A study of Mus musculus with 12 samples.

Results

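Trimethylation of histone H3 at lysine 4 (H3K4me3) usually sits where genes start, together with acetylation of lysine 27 (H3K27ac) and accessible DNA. In fetal liver of C57BL/6 mouse embryos at embryonic day 14.5, 1368 of 13600 consensus H3K4me3 regions carried neither, which is 10.1% (exact Clopper-Pearson 95% interval 9.56 to 10.6, counting error only). A consensus region was a merged stretch of the peaks of both H3K4me3 libraries that held a peak of each. The members were thus chosen by the H3K4me3, H3K27ac and ATAC peak calls themselves. A region was a member when no peak of either H3K27ac library and no peak of either ATAC-seq library shared a base with it. Of the remaining regions, 2375 met an ATAC peak but no H3K27ac peak (ATAC-only regions), 305 met an H3K27ac peak but no ATAC peak (H3K27ac-only regions), and 9552 met both.

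The histone marks were measured by ChIP-seq, in which chromatin fixed with formaldehyde is precipitated with an antibody to the mark, in fetal liver cells. Antibodies came from Abcam for H3K4me1 and Active Motif for H3K4me3 and H3K27ac. There were 3 libraries for H3K4me1 and 2 each for H3K4me2, H3K4me3 and H3K27ac, beside an input DNA library that entered no comparison. Open chromatin was mapped by ATAC-seq, in which a transposase cuts accessible DNA, in 2 libraries of proerythroblasts, an early red cell precursor. All samples share strain and embryonic day, and the labels name no genotype or treatment. Fetal liver is a mixture in which red cell precursors lie beside hepatocytes, macrophages and other cells, whereas the ATAC peaks come from a single precursor stage. H3K4me3 in another cell type and H3K4me3 in proerythroblast chromatin that is not open cannot be told apart here, nor can a mark in fewer cells and less of it per cell. The ATAC-seq samples carry a ChIP protocol, which does not state how proerythroblasts were isolated. No marker gene was checked, because no gene annotation of the files' build was used. For H3K4me2 the sample characteristics name an Abcam antibody and the protocol a Millipore one, which bears on every H3K4me2 value. The labels do not say whether libraries came from separate animals, so p-values measure only the spread between these libraries, which may be technical.

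H3K4me3 is written by the SET1 and MLL enzymes and is found at most CpG-rich promoters, including many that are not transcribed. H3K27ac is written by the acetyltransferases p300 and CBP and accompanies active promoters and enhancers. H3K4me1 marks enhancers and the flanks of active promoters, and H3K4me2 covers both kinds of site. Promoters of silent developmental genes often hold H3K4me3 together with the Polycomb mark H3K27me3, which was not measured in the libraries used here.

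The members were the weakest and narrowest of the 4 classes. Their median width was 1015 bp, with 5% below 437 bp and 5% above 2725 bp, against 1315 bp for ATAC-only, 1168 bp for H3K27ac-only and 2405 bp for regions with both. The width rests on merging both libraries. The median was 709 bp without H3K4me3 replicate 1 and 620 bp without replicate 2, but over other sets of members, 2635 and 1590 regions. Only 3 members were 5 kb or wider, of 720 such regions in all, and 123 were under 500 bp. Their median H3K4me3 fold enrichment over the peak caller's background was 3.67, with a range of 2.47 to 13.6. The corresponding medians were 4.73, 4.33 and 10.2 in the ATAC-only, H3K27ac-only and doubly positive regions. A fold enrichment of 5 or more was reached by 132 members (9.65%), 43.2% of ATAC-only regions and 84.5% of regions with both. These values describe the classes and were not tested, since the rule chose members by these same peak calls. A wider region has more bases that can meet another peak. Whether stronger H3K4me3 regions meet other peaks more readily was not tested.

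**Figure D1:**
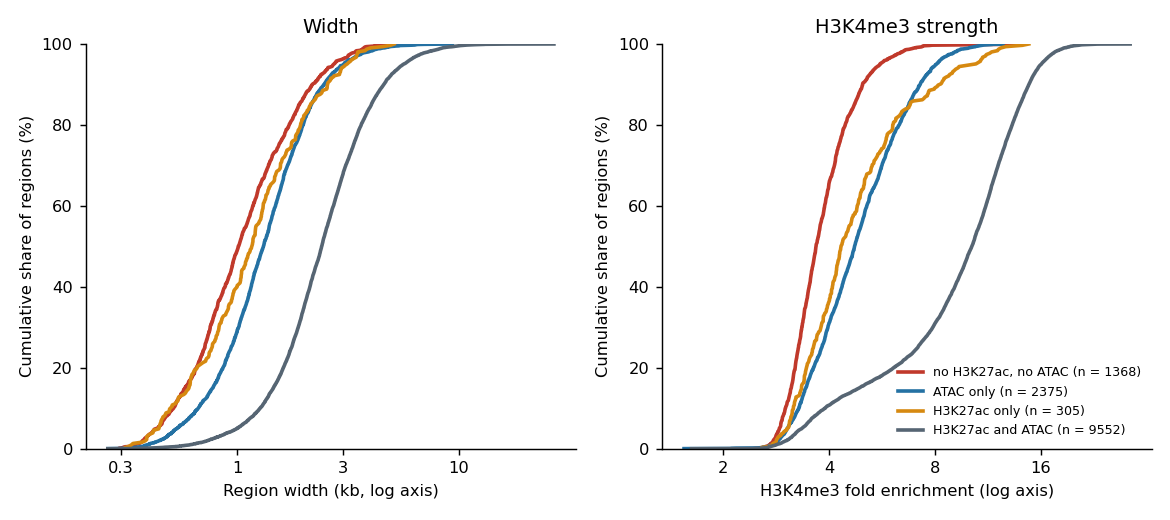
Cumulative share of consensus H3K4me3 regions (%) against region width (kb, log axis, left) and mean H3K4me3 fold enrichment over both libraries (log axis, right), one line per class. The regions without H3K27ac or ATAC peaks lie farthest left in both panels at their medians, 1015 bp and 3.67.

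Both H3K4me3 libraries placed the members low in their lists. Replicate 1 gave a median fold enrichment of 3.50 at the members, at the 18.2nd percentile of its peaks, and replicate 2 gave 3.84, at the 28.5th percentile. By quartile of fold enrichment over all consensus regions, 1061 members were in the lowest, 303 in the second, 2 in the third and 2 in the highest. Across the members, width and H3K4me3 fold enrichment had a Spearman correlation of 0.20, against 0.49 across the 9552 regions with both. These are descriptions over regions that share libraries, and regions are not replicates.

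How many members there are depended on the peak threshold and on single libraries. With −log10 q of at least 5 in every list 454 regions qualified, and with that threshold on the H3K4me3 lists alone 268 did. Without H3K4me3 replicate 1, the library with fewer peaks, the count was 2635, and without ATAC replicate 2 it was 1977. A further 817 consensus regions were kept out by a peak of a single excluded library, and for 609 of them that library was ATAC replicate 2. Judging absence on consensus H3K27ac and ATAC regions instead gave 2298 members.

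H3K4me1 was found at fewer members than at any other class of H3K4me3 region. A peak of the mark lay in 68.7% of members in replicate 1, 24.0% in replicate 2 and 43.8% in replicate 3, a mean of 45.5% ± 22.4 (SD, n = 3). The libraries differed widely, in the same order as the length their peaks cover in the genome (131, 91.5 and 106 Mb), whose part in the spread was tested only by equal peak numbers. With as many H3K4me1 peaks kept in each library as the smallest list holds, 42323, the shares were 56.9%, 24.0% and 40.8%.

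Every H3K4me1 library had a lower share at members than at each of the other classes. Among ATAC-only regions the shares were 94.9%, 61.4% and 83.1% in replicates 1 to 3, and the members differed from them by −34.3 percentage points ± 7.07 (SD over 3 libraries). The highest library at the members, 68.7%, lay above the lowest at the ATAC-only regions, 61.4%, so the groups overlapped between libraries although not within any. Against H3K27ac-only regions (85.6% ± 3.13, n = 3) the difference was −40.1 points ± 19.3, and against regions with both (99.2% ± 0.851) it was −53.7 points ± 21.6. Each of these differences had p = 0.25 in a two-sided exact permutation test that flips the sign of each library's difference, the smallest p that 3 libraries allow, and 0.529 after Benjamini-Hochberg adjustment over 18 comparisons of the 2 marks. By share of bases the order was the same, with H3K4me1 over 29.8% ± 17.6 of the members' length and 63.4% ± 21.9 of that of ATAC-only regions (p = 0.25 in the same exact test). With −log10 q of at least 5 in every list the share at members was 9.99% and the difference from ATAC-only regions −11.6 points.

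Counted per region, 296 members (21.6%) had an H3K4me1 peak in all 3 libraries, against 83.4% of all consensus H3K4me3 regions. None of the 3 libraries had a peak at 408 members (29.8%), against 4.15% of all consensus regions. In all, 564 consensus regions lacked H3K4me1 in every library, and these 408 were among them. Where a peak was present, its strength was close to that at ATAC-only regions, with a median fold enrichment averaging 2.30 ± 0.0701 (SD, n = 3) against 2.32 ± 0.136. That difference, −0.0179 ± 0.0729, was smaller than the spread between libraries (exact permutation p = 0.75). It was lower than at regions with both, 2.87 ± 0.243, in 3 of 3 libraries (exact permutation p = 0.25).

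H3K4me2, in contrast, covered nearly all members. A peak was present at 99.0% of members in replicate 1 and 95.6% in replicate 2. Both libraries had one at 1308 members (95.6%), against 99.4% of all consensus regions. In neither library was there an H3K4me2 peak at 14 members (1.02%), against 26 of all consensus regions (0.191%). Those 14 members also lacked H3K4me1 in all 3 libraries. H3K4me2 peaks took 94.9% and 88.0% of the members' length in replicates 1 and 2, and reached past both edges of the region at 86.9% and 74.9% of members. Of the 408 members without H3K4me1, 349 had H3K4me2 in both libraries.

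**Figure D2:**
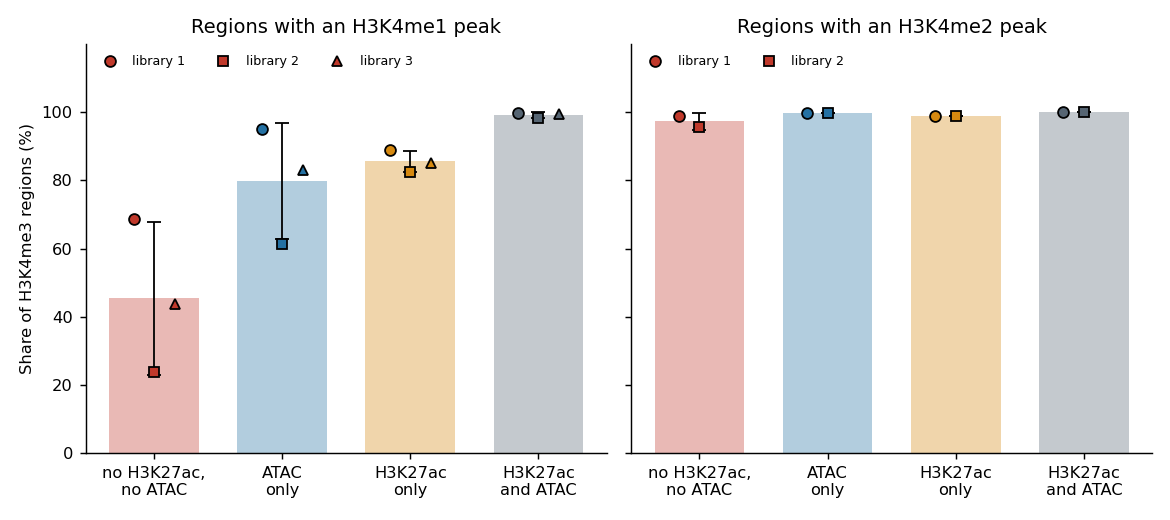
Share of consensus H3K4me3 regions (%) that hold an H3K4me1 peak (left, 3 libraries) or an H3K4me2 peak (right, 2 libraries), by class; bars are means, error bars are SD over libraries and points are single libraries. H3K4me1 spans 24.0% to 68.7% at regions without H3K27ac or ATAC peaks, while H3K4me2 is at 95.6% or above in every class.

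The members ranked low within the H3K4me3 and H3K4me1 lists and above the middle of the H3K4me2 lists. The median member stood at the 18.2nd and 28.5th percentiles of the H3K4me3 lists but at the 65.0th and 57.9th of the H3K4me2 lists, with a median H3K4me2 fold enrichment of 4.84 in replicate 1 and 3.57 in replicate 2. Where H3K4me1 was called, the median member stood between the 17.6th and 23.4th percentiles of the H3K4me1 lists. ATAC-only regions showed the same pattern. Their medians stood at percentiles 31.3 and 42.0 for H3K4me3, 76.5 and 71.4 for H3K4me2, and 32.7, 15.5 and 17.6 for H3K4me1. H3K27ac-only regions and regions with both stood above the middle of the H3K4me1 lists. Ranks within lists of different marks do not compare their levels. H3K4me2 was still weaker at members than at ATAC-only regions, by −1.24 in replicate 1 and −0.969 in replicate 2, and than at regions with both, by −2.28 and −2.14 in the 2 libraries. The smallest p in the exact permutation test with 2 libraries is 0.5, which both differences had.

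Around the region centres, H3K4me1 and H3K4me2 at the members formed a narrow peak with little signal beyond it. H3K4me2 covered 94.7% ± 3.05 of member centres, 36.2% ± 6.75 of positions 1 kb away, 10.8% ± 1.09 at 2 kb and 6.58% ± 0.258 at 5 kb (SD, n = 2, mean of both sides). At ATAC-only regions H3K4me2 cover was higher at 1 kb, 52.4% ± 2.80, and close to the members at 2 kb (12.4% ± 0.357) and 5 kb (6.99% ± 0.208). H3K4me1 covered 37.0% ± 21.5 of member centres, 12.8% ± 6.69 at 1 kb, 6.85% ± 2.64 at 2 kb and 6.66% ± 1.72 at 5 kb (SD, n = 3). At 5 kb this was close to the ATAC-only regions (7.52% ± 2.25) and below the regions with both (26.4% ± 3.93) and the H3K27ac-only regions (32.7% ± 4.68). In the regions with both, H3K4me1 was lower at the centre, 70.2% ± 12.9, than 1 kb away, 79.4% ± 7.73, in 3 of 3 libraries. The members had the opposite order in 3 of 3 libraries, and so did the ATAC-only and the H3K27ac-only regions. Centre and 1 kb were at 67.4% ± 24.2 and 31.4% ± 11.2 at ATAC-only regions. At H3K27ac-only regions they were at 75.8% ± 5.43 and 61.0% ± 4.76. These classes are narrower than the regions with both, and the profiles were not compared at equal width.

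**Figure D3:**
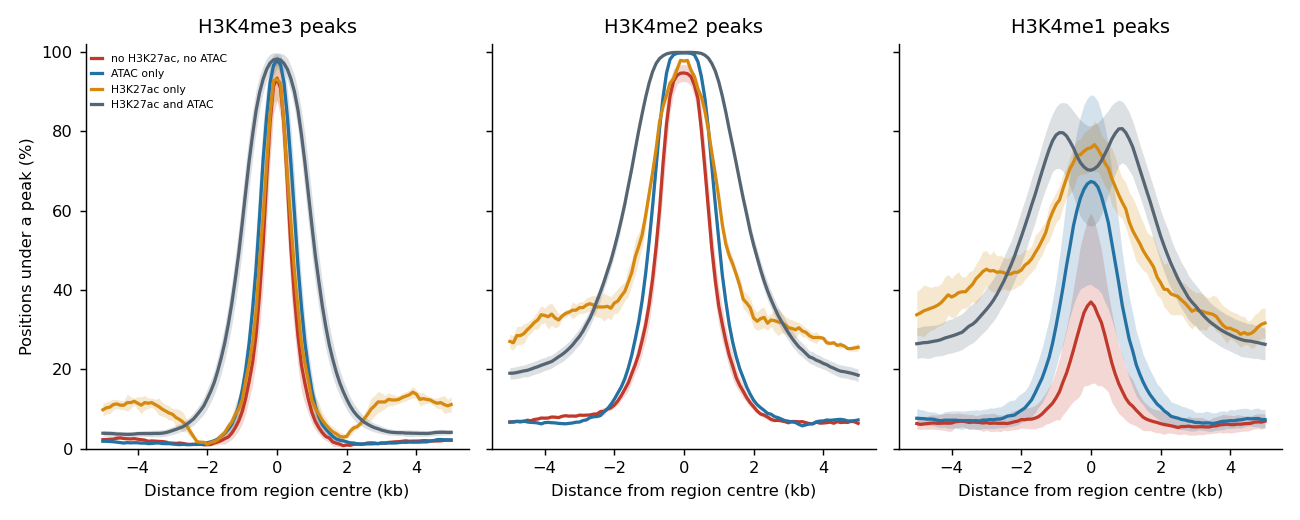
Share of positions (%) under an H3K4me3, H3K4me2 or H3K4me1 peak against distance from the region centre (kb); lines are means over libraries, shading the range between libraries, one colour per class. At regions without H3K27ac or ATAC peaks the H3K4me2 line drops from 94.7% at the centre to 10.8% at 2 kb, and the H3K4me1 line peaks at the centre at 37.0%.

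The lower H3K4me1 at members remained within ranges of width and within quartiles of H3K4me3 strength, each taken alone. Width and strength were not matched together. At 1 to 2 kb the median H3K4me3 fold enrichment was 3.78 at members and 4.97 at ATAC-only regions. Among regions of 1 to 2 kb, 518 members had H3K4me1 at 43.9% ± 23.4 and 1228 ATAC-only regions at 81.9% ± 16.2 (SD, n = 3), a difference of −38.0 points ± 9.06. Within the lowest quartile of H3K4me3 fold enrichment, where the medians were 3.49 and 3.61, 1061 members had 41.8% ± 22.9 and 952 ATAC-only regions 69.7% ± 21.5, a difference of −28.0 points ± 4.54. In that quartile the 1234 regions with both had a median H3K4me3 fold enrichment of 3.49, like the members, and H3K4me1 at 99.1% ± 0.531. Each of these differences was below 0 in 3 of 3 libraries (exact permutation p = 0.25). The third and the highest quartile held 2 members each and gave no comparison.

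Between 0.5 to 1 kb and 2 to 4 kb, wider members less often had an H3K4me1 peak and had weaker H3K4me2. Wider regions of the ATAC-only class and of the class with both did not. The narrowest members did not continue that order for H3K4me1. The 123 members under 0.5 kb had it at 40.7% ± 20.5 (SD, n = 3), against 49.2% ± 22.6 at 0.5 to 1 kb and 41.6% ± 20.7 at 2 to 4 kb. From regions of 0.5 to 1 kb to regions of 2 to 4 kb, the H3K4me1 share at members changed by −10.4, −6.65 and −5.75 points in replicates 1 to 3. At ATAC-only regions it changed by 0.0199, 17.0 and 9.24 points. The difference between these changes was −16.4 points ± 6.73 (SD, n = 3, exact permutation p = 0.25). The median H3K4me2 fold enrichment changed by −1.06 and −0.500 in replicates 1 and 2 at members, and by 0.483 and 0.304 at ATAC-only regions, a difference of −1.17 ± 0.521 (SD, n = 2, exact permutation p = 0.5). H3K27ac-only regions, of which 91 and 51 lay in these width ranges, also changed downward, by −4.49 points ± 2.26 (SD, n = 3), and the members did not differ from them beyond the spread of libraries (−3.11 ± 4.71, exact permutation p = 0.5). Their H3K4me2 also changed downward, by −0.44 and −0.07 in replicates 1 and 2. By share of bases, H3K4me1 changed by −14.9 points ± 6.83 at regions with both and −16.7 ± 7.19 at members. At ATAC-only regions that change was −0.444 ± 1.08. The contrasts with ATAC-only regions were singled out because share and H3K4me2 changed opposite ways in every library, which fixes their p-values at the smallest possible.

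**Figure D4:**
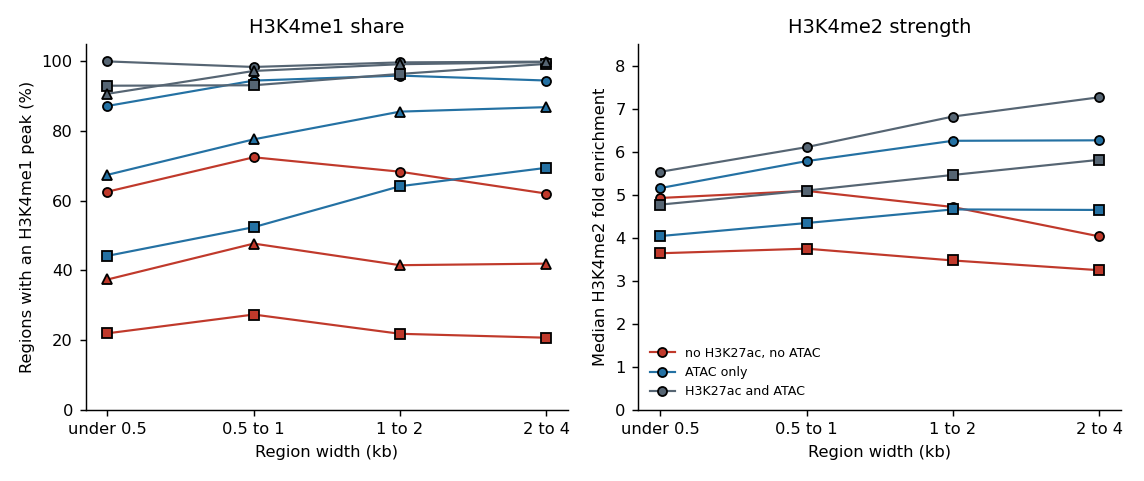
Share of regions with an H3K4me1 peak (%, left) and median H3K4me2 fold enrichment (right) against region width (kb) for 3 classes; each line is a library (circle 1, square 2, triangle 3). From 0.5 to 1 kb to 2 to 4 kb both quantities go down in every library at regions without H3K27ac or ATAC peaks and up at the other classes drawn, by as little as 0.0199 points in one ATAC-only line. H3K27ac-only regions, where both quantities also go down in every library, are not drawn.

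Distances from members to H3K27ac and ATAC peaks are a description only, since the rule used those peaks. At 100 kb or more from H3K27ac lay 27.1% of members and 19.3% of ATAC-only regions. The median distance to a peak of either kind was 20.9 kb, the median to H3K27ac 43.8 kb and that to ATAC 23.8 kb. Of the 1368 members, 66 had an excluded peak within 1 kb, 434 (31.7%) within 10 kb, and 11 had none within 1 Mb. Across the 1368 members, distance had a Spearman correlation of −0.04 with H3K4me3 fold enrichment and 0.09 with width, as a description.

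H3K4me1 was rarer at members farther from excluded peaks. It was present at 84.4%, 55.7% and 73.0% (replicates 1 to 3) of the 122 members under 2 kb from an excluded peak. Of the 212 members at 100 kb or more, 36.3%, 6.60% and 12.7% had it. The near and far libraries did not overlap, and the near-minus-far difference was 52.5 points ± 6.71 (SD, n = 3). Its exact permutation p was 0.25, the smallest that 3 libraries allow. Splits by distance, here and in the next paragraph, use peaks that the rule used, so their differences are descriptions. Seen the other way, the median distance was 6.71 kb for the 296 members with H3K4me1 in every library and 52.7 kb for the 408 with none. H3K4me2 fold enrichment was also lower far away, at 4.97 and 3.92 in replicates 1 and 2 under 2 kb and 4.10 and 3.08 at 100 kb or more.

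H3K4me1 was also rarer at ATAC-only regions farther from H3K27ac. Measured to the nearest H3K27ac peak, H3K4me1 went from 72.6% ± 19.3 of 198 members at 2 to 10 kb to 23.4% ± 19.7 of 371 members at 100 kb or more. At ATAC-only regions it went from 91.8% ± 9.86 of 458 to 61.1% ± 24.0 of 458 (SD, n = 3). The members were lower by −19.2 points ± 9.66 in the first range and −37.7 points ± 7.60 in the last, in 3 of 3 libraries each (exact permutation p = 0.25). Whether the decline itself differed between the classes was not tested.

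**Figure D5:**
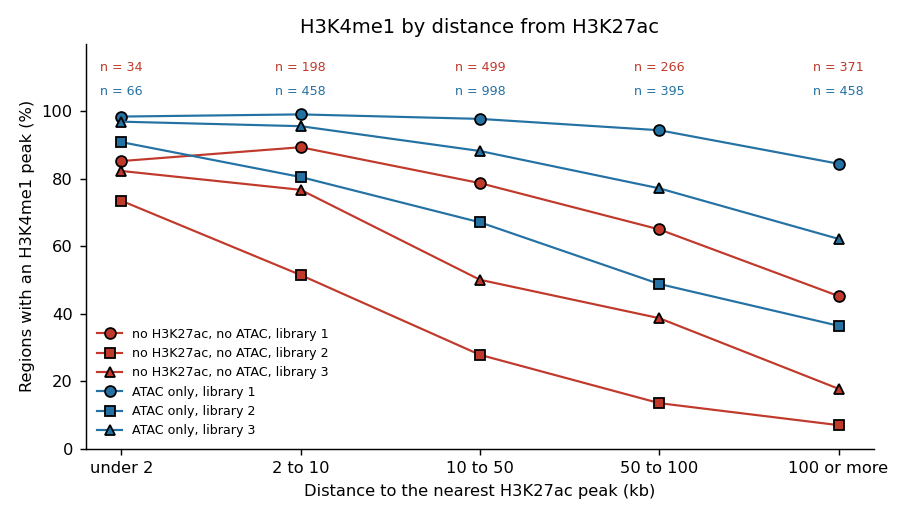
Share of regions with an H3K4me1 peak (%) by distance to the nearest H3K27ac peak (kb) for regions without H3K27ac or ATAC peaks (red) and ATAC-only regions (blue); each line is a library, and n gives the regions in each range. In every library the red line lies below the blue one, and all lines are lower at 100 kb or more than at 2 to 10 kb.

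Members were found on every chromosome used except Y, and most had no other member close by. They made up 7.37% (exact 95% interval 5.79 to 9.22) of consensus H3K4me3 regions on chromosome 7 and 14.4% (11.0 to 18.3) on chromosome 18, the lowest and highest of the autosomes, and 10.8% (8.02 to 14.2) on the X chromosome. The Y chromosome had none among 4 regions. For 853 members (62.4%) the nearest other H3K4me3 region carried both H3K27ac and ATAC, a class that makes up 70.2% of all regions. For 198 (14.5%) it was another member, where 10.1% of all regions are members. When members at most 20 kb apart with no excluded peak between them were joined, 1315 stood alone, 25 pairs formed and 1 run of 3. That run, chr6:125262850-125301955 (mm9), spans 39.1 kb, and its members had mean H3K4me3 fold enrichments of 4.80, 4.89 and 4.50, with H3K4me1 in 0, 2 and 1 libraries. Among the pairs, chr1:138843531-138856939 had no H3K4me1 in any library at either member and its members lay 261 and 253 kb from the nearest excluded peak.

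The widest member was chr2:115887857-115893549 (mm9, 5693 bp), with H3K4me3 fold enrichments of 3.09 and 3.80 in replicates 1 and 2 and H3K4me2 at 3.90 and 3.08. It had no H3K4me1 peak in any library, and the nearest excluded peak was 451 kb away. The second, chr7:77501622-77507306 (5685 bp), had H3K4me3 at 3.20 and 3.67, H3K4me1 in replicate 1 alone (2.38) and its nearest excluded peak at 730 kb. Another wide and isolated member, chr14:100682101-100686250 (4150 bp, H3K4me3 at 3.35 and 4.07), had no H3K4me1 and lay 428 kb from an excluded peak. By mean H3K4me3 fold enrichment these 3 wide regions stood above 10.9%, 10.8% and 15.8% of all consensus regions. The first 2 lay below the members' median of 3.67, and the third, at 3.71, lay just above it. All had H3K4me2 in both libraries. Others of the 10 widest lay close to acetylated or open chromatin. At chr17:36002305-36007908 (5604 bp) all 3 H3K4me1 libraries had a peak (2.73, 2.26 and 2.58), with an ATAC peak 2.84 kb and an H3K27ac peak 3.77 kb away. At chr9:95459047-95463687 (4641 bp) H3K4me1 reached 3.49, 2.85 and 2.97, with an H3K27ac peak 1.66 kb away. Of the 10 widest, 4 had an excluded peak within 10 kb and the 3 named first had none at all within a distance of 100 kb.

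The strongest wide member was chr10:26092704-26096680 (3977 bp), in both the 10 widest and the 10 of highest H3K4me3. Its H3K4me3 fold enrichment was 6.50 and 8.28 and its H3K4me2 7.86 and 5.18 in replicates 1 and 2. H3K4me1 was present in replicates 1 and 3 at 2.45 and 2.34. The nearest ATAC peak was 57.7 kb and the nearest H3K27ac peak 378 kb away. At chr7:87169268-87173886 (4619 bp) H3K4me3 was 6.04 and 7.01, with an ATAC peak at 46.2 kb.

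The 2 members of highest H3K4me3 fold enrichment were narrow, whereas the 10 of highest fold enrichment ran from 460 to 3977 bp. The first, chr4:132652565-132653024 (460 bp), had 13.3 and 13.9 in replicates 1 and 2, above 87.9% of all consensus regions, but H3K4me2 at only 3.60 and 3.30 and no H3K4me1 in any library. The second, chr8:93410878-93411341 (464 bp), had 12.0 and 14.4, with H3K4me2 at 4.98 and 4.29 and no H3K4me1. Both H3K4me3 libraries were high at these regions, while H3K4me2 was below its median over members (4.84 and 3.57) at the first and above it at the second. The next regions by rank held stronger H3K4me2. At chr2:177757950-177758914 (965 bp) H3K4me3 was 9.18 and 12.1, H3K4me2 was 8.62 and 6.15, and H3K4me1 was present in replicates 1 and 3. At chr2:165317674-165319378 (1705 bp) H3K4me3 was 9.92 and 9.12, H3K4me2 was 7.70 and 5.71, and all 3 H3K4me1 libraries had a peak, with an ATAC peak 4.70 kb away. No list of problem regions of the genome was used, and the part of such regions in the narrow, high members was not tested.

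The most isolated member, chr12:96933462-96934133 (672 bp), lay 2563 kb from an H3K27ac peak and as far from an ATAC peak. It had H3K4me3 at 3.18 and 3.01, H3K4me2 at 4.01 and 2.86 and H3K4me1 in replicate 1 alone. Next came chrX:78315791-78316838 at 2486 kb (H3K4me3 3.13 and 3.59) and chr5:81448896-81449655 at 1925 kb (3.23 and 3.71), both with H3K4me1 in replicate 1 alone. Of the 5 most isolated members none had H3K4me1 in more than 1 library.

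At the edge of the rule the assignment turned on a few bases. The members closest to an excluded peak were chr15:98341121-98341686, chr6:85330889-85331425, chr3:127328517-127329233, chr9:48642741-48644382 and chr10:26154780-26157270, each with an ATAC peak 4 to 25 bp away. The regions most narrowly kept out shared 3 to 10 bp with a peak of ATAC replicate 2 and met no peak of the other excluded libraries. They were chr13:43710950-43711687, chr18:77981359-77982377, chr19:46210210-46211780, chr3:89764226-89764487 and chr7:108469172-108471702. H3K4me3 fold enrichment was 3.19 to 4.69 in the first set and 2.58 to 5.48 in the second. Requiring no excluded peak within 1 kb left 1302 members. H3K4me3 stretches called in 1 library alone, which the rule leaves out, also included regions without H3K27ac or ATAC peaks. These were 118 of 240 stretches of replicate 1 (49.2%, exact 95% interval 42.7 to 55.7) and 1253 of 3281 of replicate 2 (38.2%, 36.5 to 39.9).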

How the data were processed

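Peak lists of 11 samples were used: H3K4me1 (3 libraries), H3K4me2, H3K4me3, H3K27ac and proerythroblast ATAC (2 each). Per the submitters' processing notes, Trimmomatic 0.32, Bowtie 1.0.1, SAMtools and MACS2 were used with build mm9; the notes give neither settings, MACS2 version nor control. Deposited by the authors was a list for each library, broad for ChIP and narrow for ATAC, with a fold enrichment (a ratio), a −log10 p and a −log10 q for each peak and a score column that is 10 times the −log10 q, cut to a whole number in nearly all peaks. The lists hold no read counts, so depth is unknown, and a missing peak may be a shallow library. Every deposited peak has a −log10 q above 1.

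Autosomal (1 to 19), X and Y peaks were kept, and 7 mitochondrial peaks were set aside. Regions overlapped when they shared 1 bp. A region's fold enrichment is the mean over a library's peaks weighted by shared bases. Positions are mm9, counted from 1. The gene and promoter tables at hand are on GRCm38 (peaks on chromosome 1 reach 197068858, past the last gene end there, 195291439), so no genes or sequences were assigned to regions and that planned step was not run. Classes were compared within each library by exact permutation of signs. Named regions follow a rule: the 10 widest, the 10 of highest H3K4me3, the 5 farthest and 5 nearest to excluded peaks, 5 runs (the run of 3, then the first 4 of 25 tied pairs by chromosome and start) and the 5 regions just outside. The members and lists were chosen with earlier results of these data known. Scripts (Python 3.11.15, NumPy 2.4.6, SciPy 1.17.1) were tested on simulated peak lists.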

Additional observations from a re-analysis of the deposited data

Results flagged for a closer look

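The change of H3K4me1 share from regions of 0.5 to 1 kb to regions of 2 to 4 kb went down in every library at the members and up in every library at 2 other classes. H3K27ac-only regions went down like the members, by −1.87, −5.80 and −5.80 points in replicates 1 to 3. The rise at ATAC-only regions was only 0.0199 points in replicate 1. Regions with both already had H3K4me1 at 96.3% at 0.5 to 1 kb, which left little room to rise. Members minus ATAC-only regions gave −16.4 points and members minus regions with both gave −11.0 points ± 2.39 (SD, n = 3, exact permutation p = 0.25 for each, the smallest that 3 libraries allow). For the median H3K4me2 fold enrichment the same contrast gave −1.17 against ATAC-only regions and −1.71 ± 0.708 against regions with both (SD, n = 2, exact permutation p = 0.5, the smallest that 2 libraries allow). Members under 0.5 kb, which this contrast leaves out, had H3K4me1 at 40.7%, close to the 41.6% at 2 to 4 kb. These contrasts were flagged because the classes changed opposite ways in every library, which fixes their p-values at the smallest possible. The differences could not pass a threshold of 0.05 in this design. Share of bases did not show opposite changes against regions with both, where H3K4me1 cover fell by 14.9 points ± 6.83 against 16.7 ± 7.19 at members.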

How the results depend on the processing

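All 72 alternative values of the H3K4me1 differences between members and the other classes stayed below 0, from −65.0 to −11.6 points, and none can reach 0.05. They include the settings that leave out an H3K4me2 library, which cannot change these differences and returned the main values. With −log10 q of at least 5 in every list there were 454 members (4.47% of consensus regions), of median width 1310 bp and H3K4me3 fold enrichment 5.01, with H3K4me1 at 9.99%, H3K4me2 over 97.2% of bases and an H3K4me2 fold enrichment of 5.13. With that threshold on H3K4me3 alone there were 268 (2.64%), with H3K4me3 at 4.90, H3K4me2 over 98.6% of bases and 37.7% within 10 kb of an excluded peak. Absence judged on consensus regions gave 2298 members (16.9%), 22.5% of them within 10 kb. The H3K4me3 and H3K27ac libraries that share a date-like tag gave 2671 members (15.8%), of median width 708 bp, 35.4% of them within 10 kb. Leaving out each library in turn gave 1368 to 2635 members, 10.1% to 15.6% of consensus regions, median widths of 620 to 1041 bp, H3K4me3 fold enrichments of 3.45 to 3.79, H3K4me1 at 33.9% to 56.3%, H3K4me2 over 88.0% to 94.9% of bases and at 3.57 to 4.84, and 25.3% to 35.8% within 10 kb. No H3K27ac or ATAC peak within 1 kb gave 28.3% within 10 kb, and regions of at least 500 bp gave 9.35%. An equal number of H3K4me1 peaks per library, chosen after seeing the data, gave an H3K4me1 share of 40.5%. The causes were not tested, except that stricter lists and fewer libraries by construction hold fewer peaks. No paired analysis was possible because no comparison is between groups of samples whose replicate numbers could pair them. Classes of regions were compared within each library, by that library's own difference.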
